A study of Mus musculus with 6 samples.

Results

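The comparison described here set the TGF-b library of the T set against its NC library. Both came from primary mouse cardiac fibroblasts and were made by CUT&Tag, in which an antibody guides a transposase to chromatin so that reads accumulate where its target sits. The letter T was taken to stand for TAZ, the transcriptional co-activator that the study profiled with SRF; the labels do not name the antibody. The labels give the treatments only as TGF-b and NC, name no dose, and do not spell NC out. There was 1 library a side out of 6 in the series, so every difference below is between 2 libraries, has no replicate check and carries no test of the treatment.

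TAZ does not bind DNA by itself. It is held in the cytoplasm by the Hippo kinases and, when released, reaches chromatin through TEAD factors, often beside AP-1, at enhancers and promoters of genes for adhesion, cytoskeleton and matrix. TGF-b signals through receptor serine kinases to SMAD factors and turns fibroblasts into contractile, collagen-secreting myofibroblasts.

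Each region of the deposited table has a normalized read density in either library, and the measure used throughout was the log2 of the TGF-b over the NC density. A region is called raised at 2-fold or more and lowered at 2-fold or more in the other direction. Outside the MT chromosome there were 170877 of 170890 regions, of which 29631 were raised and 71977 lowered. Statements on genes used the 56315 regions whose larger density was at least 7.5, referred to as qualified, which corresponds to 13 reads or more in the library with the larger density. With 0 reads on the other side, 13 TGF-b reads passed (Tmem117, density 7.52) and 15 NC reads did not (Gm56720, density 7.46). Of these, 8036 were raised, or 14.3% of them, and 25813 were lowered, or 45.8%. The median log2 was -0.85. The median qualified region held 19 reads in NC against 12 in TGF-b, and its called width was 121 bp. The 95% interval of the log2, which comes from a Wilson interval on the share of reads and covers counting error only, lay above 0 in 95.8% of raised and below 0 in 96.8% of lowered regions. The same reads set the call and the interval, so these shares largely follow from the 2-fold rule and do not check the calls. Reads were counted in windows of 2 kb, and 40.2% of qualified regions had another qualified summit within that distance, so neighbours can share reads.

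The position of 0 was set by the authors, who scaled the densities so that regions called in both libraries centre on it. Raised regions made up 23.7% of the raised and lowered regions together. That share was 21.97% with the authors' scaling line undone and 45.2% when the median of all regions, -0.65, was taken as 0. Counts of raised against lowered regions therefore depend on where 0 is placed. Among the 8200 regions called in both libraries the share was 47.4%, which the scaling itself sets close to even. Comparisons between kinds of regions within the table are less exposed to it, and the account below rests on those.

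The share of raised regions was highest at promoters, and that of lowered regions was highest away from them. By number, 2711 of the 8036 raised qualified regions lay within 1 kb of a TSS. Beyond 10 kb or without a gene there were 3998. Among 7787 regions within 250 bp of a transcription start site (TSS), 25.4% were raised and 10.6% lowered, with a median log2 of 0.36. From 250 to 1000 bp the median was -0.15, from 1 to 3 kb it was -0.98, and beyond 50000 bp it was -1.30. The 17740 regions without an annotated gene had a median of -1.22, with 11.9% raised and 55.4% lowered. The share of raised regions thus dropped over the first 1 kb and was then flat, between 11.7% and 12.3%, while that of lowered regions climbed from 10.6% to 58.3%.

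**Figure D1:**
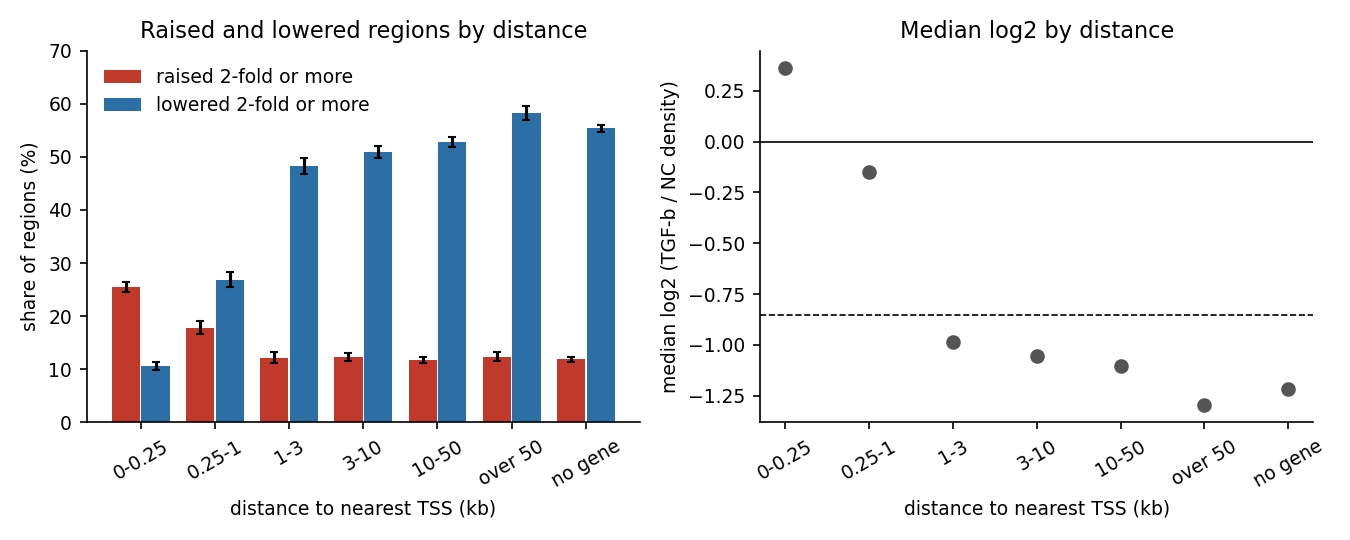
Left, share of qualified T set regions raised (red) and lowered (blue) 2-fold or more in the TGF-b library, by distance to the nearest TSS in kb, with Wilson 95% intervals for counting error. Right, median log2 of the TGF-b over the NC density in the same bins, with the median of all qualified regions, -0.85, dashed; the median goes from 0.36 next to the TSS to -1.30 beyond 50 kb.

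The same order was seen by annotated feature. Regions in 5' UTRs were raised in 27.3% and lowered in 8.95% of 1520 cases, and those annotated as promoter in 22.2% and 18.3% of 8496. Introns, which held 24528 qualified regions, were raised in 12.3% and lowered in 51.2%. Exons lay between, with 15.3% raised and 40.4% lowered of 2408. Protein-coding genes had more raised regions within 1 kb of a TSS than long non-coding RNA genes, 23.3% of 9888 against 18.02% of 899, by the gene types that RefSeq gives for matching symbols.

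The difference was also present among regions of like density. Regions near start sites were denser, with a median larger density of 14.6 within 1 kb against 10.2 in the class beyond 10 kb or without a gene. Within regions of density 7.5 to 10, the median log2 was -0.02 for 2574 regions within 1 kb and -1.08 for 15601 distant ones. Within regions of density 25 to 50, it was 0.49 for 1800 and -1.08 for 1311. Among regions called in both libraries, the medians were 0.33 within 1 kb and -0.33 in the distant class. The library in which a region was called follows its change, so strata by call do not test the difference: in NC only the medians were -0.54 and -1.70, and in TGF-b only, where the gap was small, 0.98 and 0.93.

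Promoter and distant regions also differed inside the same genes. Of 1956 genes with a qualified region within 1 kb of a TSS and another beyond 10 kb, the first had the higher median in 1431, or 73.2%. The median difference was 1.16 on the log2 scale, with a 95% rank interval of 1.08 to 1.26 that treats genes as independent. A shift of all values leaves this difference as it is, and it was 1.20 without the authors' scaling line. It was smaller, 0.66, over the 196 genes left when only regions called in both libraries were used.

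**Figure D2:**
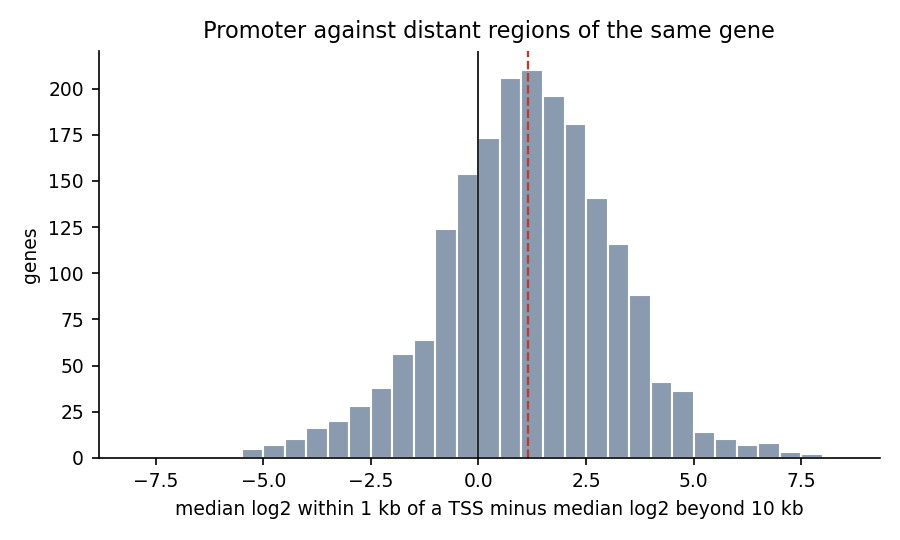
Number of genes (vertical axis) by the difference between the median log2 of their regions within 1 kb of a TSS and of those beyond 10 kb (horizontal axis, log2 units), for 1956 genes. The dashed line is the median, 1.16, and 1431 genes lie above 0.

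Wwtr1, the gene of TAZ itself, showed this pattern. Its promoter region at chr3:57483187-57483491 held 41 reads in NC against 65 in TGF-b, a log2 of 0.62. Its 7 other qualified regions, all at least 18208 bp from a start site, had log2 values from -0.65 to -1.88. Adamts9, a secreted protease that cleaves proteoglycans, had a promoter region at chr6:92920615-92920711 with 2 reads in NC against 30 in TGF-b, a log2 of 3.49 (95% interval 2.11 to 5.95), and an intronic region with 64 and 5 reads, a log2 of -3.38 (-4.89 to -2.35). Tcf7l2, a DNA-binding factor of the Wnt pathway, had 10 and 49 reads at its promoter, a log2 of 2.22 (1.37 to 3.30), and 39 and 10 reads in a distant intronic region, a log2 of -1.81 (-2.90 to -0.93). The Adamts9 and Tcf7l2 regions were named as the densest raised and lowered ones of a list, so their opposite directions come from that choice. The pattern did not hold in every gene: the promoter was lower by more than 1 on the log2 scale in 246 of the 1956 genes and higher by more than 1 in 1053.

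What the sequences of these promoters look like can be read from RefSeq, whose table for build GRCm38.p6 gives 300 bases around the start of each gene. Genes were matched by symbol, since the regions are on GRCm39 and were not moved between builds. Of 6080 genes whose densest region within -250 to 50 bp of a TSS qualified, 4652 had a RefSeq promoter and 3634 had only 1, and these were used. The 250 bases before the start are printed for the 3 raised and the 3 lowered promoters of that group with the interval furthest from 0, in order to show how they differ in CpG content; capitals mark every CG dinucleotide.

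Naa15 (chr3:51415766-51416015, plus strand): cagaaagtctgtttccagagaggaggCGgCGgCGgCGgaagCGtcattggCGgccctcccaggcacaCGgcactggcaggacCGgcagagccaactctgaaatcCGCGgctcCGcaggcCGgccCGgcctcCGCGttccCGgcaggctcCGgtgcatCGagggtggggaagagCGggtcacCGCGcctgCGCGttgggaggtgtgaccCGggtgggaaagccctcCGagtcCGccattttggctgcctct
Rragc (chr4:123917183-123917432, plus strand): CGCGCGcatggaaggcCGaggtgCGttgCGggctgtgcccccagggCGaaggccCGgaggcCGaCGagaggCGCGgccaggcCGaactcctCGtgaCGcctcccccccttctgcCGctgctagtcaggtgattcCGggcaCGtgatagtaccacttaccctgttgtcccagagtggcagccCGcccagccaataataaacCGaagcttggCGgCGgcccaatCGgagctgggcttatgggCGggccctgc
Ndufb5 (chr3:32736813-32737062, plus strand): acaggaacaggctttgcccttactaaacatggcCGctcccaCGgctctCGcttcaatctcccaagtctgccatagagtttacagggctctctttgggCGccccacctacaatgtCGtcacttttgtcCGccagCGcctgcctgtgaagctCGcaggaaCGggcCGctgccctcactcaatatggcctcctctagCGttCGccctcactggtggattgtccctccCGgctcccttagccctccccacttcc
Rps7 (chr12:28635954-28636203, minus strand): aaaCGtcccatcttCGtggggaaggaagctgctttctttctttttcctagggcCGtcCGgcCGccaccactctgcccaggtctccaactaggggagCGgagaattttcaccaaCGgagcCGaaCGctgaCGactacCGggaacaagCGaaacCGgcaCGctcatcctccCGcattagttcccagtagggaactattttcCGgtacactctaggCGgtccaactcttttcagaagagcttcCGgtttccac
Lelp1 (chr3:92142755-92143004, minus strand): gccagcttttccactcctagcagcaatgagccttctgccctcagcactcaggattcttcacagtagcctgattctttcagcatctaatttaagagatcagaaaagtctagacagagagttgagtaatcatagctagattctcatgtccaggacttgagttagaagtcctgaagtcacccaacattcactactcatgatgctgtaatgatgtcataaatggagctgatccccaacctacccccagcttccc
Mirt1 (chr19:53464797-53465046, minus strand): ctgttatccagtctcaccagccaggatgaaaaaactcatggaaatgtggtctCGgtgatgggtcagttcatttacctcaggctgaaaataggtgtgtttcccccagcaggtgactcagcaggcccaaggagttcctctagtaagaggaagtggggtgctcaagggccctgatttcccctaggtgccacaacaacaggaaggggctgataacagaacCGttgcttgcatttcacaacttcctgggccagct

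The 3 raised promoters held 26, 24 and 13 CG dinucleotides in these 250 bases. Among the lowered ones Rps7, a ribosomal protein gene, held 18, Lelp1 held 0 and the non-coding RNA gene Mirt1 held 2. Rps7 had 39 reads in NC against 1 in TGF-b, Lelp1 had 33 and 1, and Mirt1 had 31 and 1. So a lowered promoter was not always CpG-poor, as Rps7 shows. Over whole groups, the median ratio of observed to expected CpG was 0.804 in 998 raised, 0.791 in 2346 neither raised nor lowered and 0.677 in 290 lowered promoters, against 0.374 in all 22862 RefSeq promoters with a single entry. The GC content followed, with medians of 62.3%, 62.3% and 58.0%. Raised promoters were thus like those that did not move, and it was the lowered ones that stood nearer to the average promoter.

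Motifs were searched on both strands of the 300 bases. The GC box GGGCGG was present in 73.1% of raised, 73.8% of unmoved and 55.5% of lowered promoters, against 35.2% of all. The CCAAT motif of NF-Y was in 44.7% of raised, 49.7% of unmoved and 34.8% of lowered promoters, against 38.2% of all. The AP-1 motif TGANTCA was in 3.71% of raised (2.70% to 5.07%), 5.29% of unmoved and 9.31% of lowered promoters (6.48% to 13.2%), against 7.98% of all. The TEAD motif GGAATG was in 11.6% of raised (9.78% to 13.8%), 11.8% of unmoved and 12.8% of lowered promoters (9.40% to 17.1%), with 14.6% in all. The intervals of the raised and lowered groups overlap. In the 200 bases before the start alone, a window chosen after seeing the data, the TEAD motif was in 7.72% of raised and 9.66% of lowered promoters, with 10.1% in all. The SRF CArG box was in 1.60% of raised, 1.75% of unmoved and 0.690% of lowered promoters, with 1.53% in all. These are matches of letters in a fixed window, and regions more than 250 bp from a start could not be read.

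Stretches around the TEAD motif are shown for the 3 raised promoters with the highest lower bound among those that hold it upstream of the start, with the motif, on either strand, in capitals.

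Rab11a (chr9:64737790-64737889, minus strand): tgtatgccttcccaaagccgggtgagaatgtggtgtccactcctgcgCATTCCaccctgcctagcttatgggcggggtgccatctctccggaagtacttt
Zfp12 (chr5:143234913-143235005, plus strand): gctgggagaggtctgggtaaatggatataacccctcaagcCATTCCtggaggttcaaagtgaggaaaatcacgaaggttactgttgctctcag
Ppp1r35 (chr5:137778797-137778896, plus strand): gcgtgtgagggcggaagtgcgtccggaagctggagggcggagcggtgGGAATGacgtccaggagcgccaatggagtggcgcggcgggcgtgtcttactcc

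Rab11a, a GTPase of recycling endosomes, had 0 reads in NC against 21 in TGF-b. Zfp12, a zinc finger gene, had 0 and 18 reads, and Ppp1r35, a regulatory subunit gene of protein phosphatase, had 1 and 24.

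Of the 15934 qualified regions within 3 kb of a TSS, 3203 were raised, or 20.1% of them, and 3883 lowered, or 24.4%. The 10 promoter regions whose interval lay furthest above 0 all had 2 reads or fewer in NC. A fold against a library with 0 reads is given with that library set to 3 reads, as a lower bound. Naa15, the auxiliary subunit of the N-terminal acetyltransferase NatA, had 0 reads in NC against 38 in TGF-b at chr3:51323297-51323463, at least 10.9-fold higher. Cct2, a subunit of the cytosolic chaperonin, had 0 and 35 reads and was at least 10.1-fold higher. Rragc, a Rag GTPase that recruits mTORC1 to lysosomes, had 0 and 31 reads and was at least 8.996-fold higher.

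Lamtor4, a member of the Ragulator complex that anchors Rag GTPases, had 1 read in NC against 45 in TGF-b, a log2 of 4.64 (3.09 to 8.14). Ndufb5, a subunit of respiratory complex I, had 1 and 44 reads, a log2 of 4.61 (3.06 to 8.11). Amot, the angiomotin that binds YAP and TAZ and holds them outside the nucleus, also had 1 and 44 reads. All 3 were called as peaks in the TGF-b library alone. Tmem216, a protein of the ciliary transition zone, and Shisa4 each had 0 and 28 reads and were at least 8.18-fold higher. Nr3c1, the glucocorticoid receptor, had 1 and 41 reads, a log2 lower bound of 2.96. Atp2b1, a calcium pump of the plasma membrane, had 2 and 52 reads, a log2 of 4.24 (2.90 to 6.69).

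The 10 promoter regions with the interval furthest below 0 all had 2 reads or fewer in TGF-b. Plekha8, a glycolipid transfer protein, and the predicted gene Gm45515 each had 40 reads in NC against 0 in TGF-b, at least 9.19-fold lower. Itgae, the integrin chain of CD103, had 70 and 2 reads, a log2 upper bound of -3.16, in a region at -2351 bp from the TSS. Dnah8, an axonemal dynein heavy chain, had 55 and 1 reads, with an upper bound of -3.15. Galc, the lysosomal galactosylceramidase, had 36 and 0 reads and Grid2ip, a scaffold protein of Purkinje synapses, had 35 and 0. Tpra1 had 39 and 0 reads, Gm42836 had 37 and 0, and Gm30709 and Tmem273 had 35 and 0 each. Of the raised 10, all lay within 235 bp of the TSS, whereas 6 of the lowered 10 lay 654 bp or more from it and 3 were predicted genes. Among all 3883 lowered regions within 3 kb of a TSS, 825 lay within 250 bp and 1957 beyond 1 kb. Among the 3203 raised ones these numbers were 1981 and 492.

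**Figure D3:**
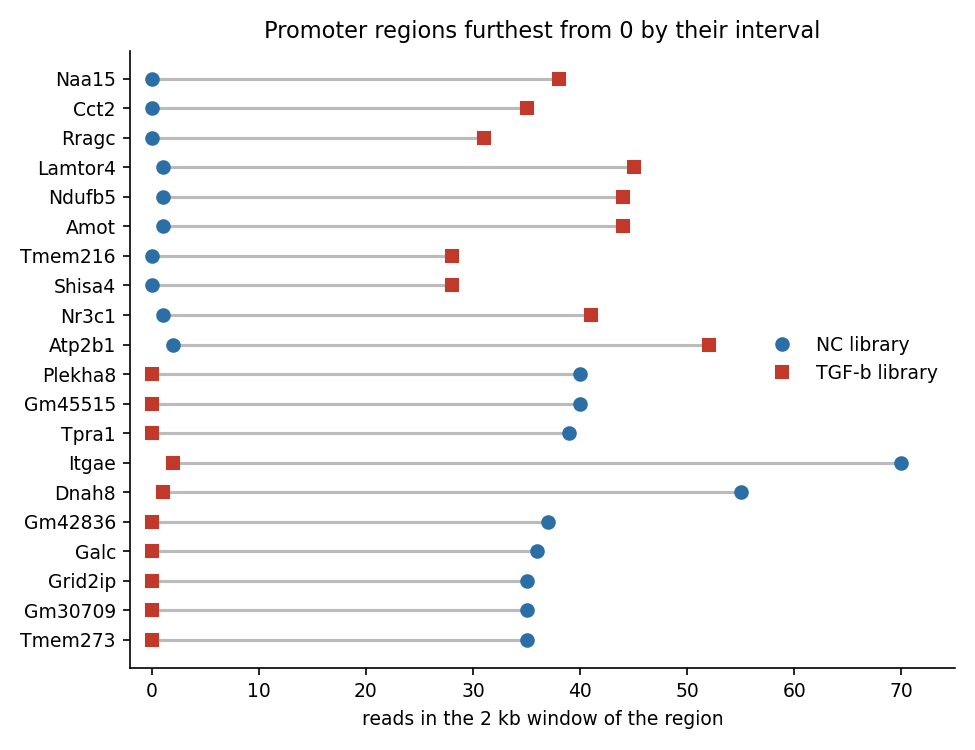
Reads in the 2 kb window of each region (horizontal axis) in the NC library (blue circles) and the TGF-b library (red squares), for the 10 promoter regions with the highest lower bound and the 10 with the lowest upper bound of the log2 interval. The first 10 have 28 to 52 reads in TGF-b and 0 to 2 in NC, and the last 10 have 35 to 70 in NC and 0 to 2 in TGF-b.

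Counted by gene, 15549 genes carried a qualified region. Raised regions alone were found in 2643, lowered regions alone in 6108, both in 1920 and neither in 4878. This class followed the number of regions of a gene. Of 7100 genes with 1 region, 22.1% were raised and 31.2% lowered, while of 288 genes with over 10 regions, 79.2% had both and 1 gene had raised regions only. To compare gene groups, each gene was therefore given its densest promoter region. Of 10728 genes with one, 22.7% were raised and 22.2% lowered, and the median log2 was 0.13. The gene lists below are read against these values, and the lists and members were chosen with earlier results of these data known.

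The genes with the most raised regions were long genes with many regions of both kinds. Nrxn3, a presynaptic adhesion molecule, had 12 raised and 14 lowered of 30. Grid1, a delta-type glutamate receptor, had 8 raised and 4 lowered of 16, and its 8 raised regions were all intronic. Dpp6 and Anks1b had 7 raised each, beside 11 and 8 lowered. Tead1, a DNA-binding partner of TAZ, had 8 raised and 6 lowered of 22, with a median log2 of 0.46. Its promoter region at chr7:112278072-112278620 held 24 reads in NC against 81 in TGF-b, a log2 of 1.69 (1.08 to 2.39). An intronic region at chr7:112262850-112262987 held 4 and 38 reads, a log2 of 3.05, and another, at chr7:112374472-112374554, held 16 and 0. Tead1 regions therefore moved in both directions, with the promoter raised.

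Among the genes with the most lowered regions were Dab1, an adaptor of reelin signalling, with 22 of 36, Ptprd, a receptor phosphatase, with 19 of 20, Pde4d, a cyclic AMP phosphodiesterase, with 18 of 32, and Agbl1 with 17 of 23. Each of these also had at least 1 raised region. Over a list of 26 long neuronal genes, 193 of 316 regions were lowered and 58 raised, with a median of -1.55 against -0.85 for all qualified regions. These are 61.1% lowered and 18.4% raised. Of all qualified regions beyond 50 kb of a TSS, 58.3% were lowered and 12.3% raised, with a median of -1.30. Of the 6 genes of the list with a promoter region 2 were raised there, 2 lowered and 2 neither, with a median of 0.34.

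Genes of the TGF-b pathway are given from the cytokine inward. Of 11 genes for ligands, latency proteins and receptors with a promoter region, 1 was raised and 5 were lowered, with a median of -0.93 against 0.13 for all genes. Tgfbr1, the type I receptor kinase, was the raised one, with 24 and 50 reads and a log2 of 1.03 (0.37 to 1.76). The lowered ones were 3 latent TGF-b binding proteins that tether the inactive cytokine to matrix, Ltbp2, Ltbp3 and Ltbp4, with log2 values of -1.86, -1.97 and -1.38, the co-receptor gene Tgfbr3 with -1.30, and Lrrc32, which holds latent TGF-b at the cell surface, with -1.36. Tgfb1 had 19 and 25 reads, a log2 of 0.42, and Tgfbr2, the type II receptor, had 17 and 29, a log2 of 0.78. Neither passed 2-fold.

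Of 13 SMAD and feedback genes, 4 were raised and 2 lowered at the promoter. Ski, a co-repressor of SMAD complexes, had 29 reads in NC against 158 in TGF-b at chr4:155307526-155307989, a log2 of 2.35 (1.82 to 2.96). Smad2, a receptor-activated SMAD, had 18 and 68 reads, a log2 of 1.86 (1.18 to 2.66). The inhibitory SMAD gene Smad6 had a log2 of 1.49. Pmepa1, a feedback inhibitor induced by TGF-b, had 2 and 29 reads at its promoter, a log2 of 3.44, while its densest lowered region, 12431 bp from the TSS, had 90 and 39, a log2 of -1.23. Smurf1, a ubiquitin ligase for SMADs and receptors, was lowered with 83 and 36 reads, a log2 of -1.22, and so was Ppm1a with -1.55. Smad3 had 31 and 53 reads, a log2 of 0.74. In the BMP list 2 of 9 promoters were raised and 1 lowered, with Id3 at 1.11.

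In the Hippo pathway, 5 of 15 promoters of kinases and scaffolds were raised and 3 lowered. Beside Amot these were Ptpn14, a phosphatase that retains YAP, with 18 and 60 reads and a log2 of 1.69 (0.99 to 2.49), the kinase Stk3 with 1.04, its scaffold Sav1, just past 2-fold with 13 and 26 reads, and Amotl1 with 1.28. Ajuba, Taok1 and Map4k4 were lowered, at -1.05, -1.30 and -1.61. Over all 79 regions of the list the median was -0.82 against -0.85 for all qualified regions. Of the 4 genes with a promoter region among YAP, TAZ, TEAD and VGLL genes, 1 was raised, which is Tead1, and 3 were neither. Vgll3, a co-factor of TEAD, had 37 and 61 reads in its densest promoter region, a log2 of 0.68, and 27 and 60 in a less dense one at 163 bp upstream, a log2 of 1.11 (0.49 to 1.79). Vgll4, a TEAD co-repressor, had 71 and 3 reads in an intron, a log2 of -4.10 (-6.08 to -2.91). By the KEGG annotation of the table, 26 of 89 Hippo pathway promoters were raised, 29.2%, and 11 lowered, 12.4%, with a median of 0.53, which ranked 238 from the lowest of 255 pathways.

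Known YAP and TAZ target genes were close to the background. Of 15 promoters, 4 were raised and 3 lowered, and their median was 0.21. Ccn2, the matricellular growth factor that is a classical target, held 150 reads in NC against 115 in TGF-b, a log2 of -0.50. Ankrd1 was lowered, with 52 and 25 reads and a log2 of -1.03. Nuak2, a kinase related to AMPK, had 3 and 31 reads, a log2 of 3.11, and Gadd45a had 21 and 48, a log2 of 1.16. Amotl2 had a raised intronic region with 9 and 49 reads, a log2 of 2.37 (1.48 to 3.49), and its densest promoter region did not pass 2-fold. Over all 115 regions of the list, 11 were raised and 52 lowered, with a median of -0.73.

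By the densest promoter region of each of 24 genes of actin filaments and contraction, 6 were raised and 1 lowered, with a median of 0.28. Over all 100 regions of the list, 9 were raised and 31 lowered, against 45.8% lowered of all qualified regions, and 7 of the genes carried lowered regions only, against 39.3% of all genes. Of these regions Cald1, an actin-binding regulator of contraction, had one with 54 and 10 reads, and Pdlim5, a scaffold at actin filaments, one with 54 and 8. The Cald1 region was called in the TGF-b library alone, although its NC density was larger. Actn1, an actin crosslinker of stress fibres, had 16 and 67 reads, a log2 of 2.01 (1.30 to 2.85). Vcl, the focal adhesion protein vinculin, had 31 and 76, a log2 of 1.24 (0.67 to 1.86). The smooth muscle gene Tagln had 15 and 38, a log2 of 1.32, and Actb had 1.12. Actn4 was the lowered promoter, at -1.84, and Acta2, the marker of myofibroblasts, had 35 and 36 reads, a log2 of 0.04. Among integrin and focal adhesion genes, Fermt2, an activator of integrins, had 6 and 58 reads, a log2 of 3.13 (2.15 to 4.51), within 300 bp of the TSS, while 4 of the 18 promoters were raised, 2 lowered and 12 neither.

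Matrix genes had members of both directions. Under the ontology term extracellular matrix 12 of 97 promoters were raised and 33 lowered, with a median of -0.45, the 8th lowest of 218 components, and under basement membrane 5 and 16 of 50, with a median of -0.35. Other matrix terms varied. Collagen trimer had 9 raised and 9 lowered of 37 and a median of -0.35, and matrix constituents conferring tensile strength 5 and 4 of 22 and -0.43. The counts were 25 and 38 of 146 for collagen-containing extracellular matrix, 16 and 20 of 80 for extracellular matrix organization, and 7 each of 34 for collagen fibril organization, with medians of -0.11, -0.07 and 0.18. Of 11 fibrillar and associated collagen genes 3 were raised and 2 lowered at the promoter. Col1a1, a chain of the main scar collagen, had 12 and 24 reads, a log2 of 1.01 with an interval of 0.08 to 2.04, and Col3a1 had 17 and 0 in a region 2619 bp from the TSS. Col5a2 had 3 and 18 reads, a log2 of 2.38, and Col12a1, with 53 and 26, was lowered by just over 2-fold. In Col15a1, a region with 11 and 52 reads and another with 55 and 19 lay in introns of the same gene. Lamc1, a laminin chain of basement membranes, had 40 and 139 reads at its promoter, a log2 of 1.71 (1.23 to 2.24). P4ha1, a prolyl hydroxylase for collagen, had 15 and 66, a log2 of 2.08 (1.35 to 2.95), and Tnc, the matrix protein tenascin C, was lowered with 54 and 21, a log2 of -1.32 (-2.08 to -0.64). Of 10 promoters of matrix proteases and their inhibitors 2 were raised and 4 lowered, with a median of -0.70. Timp1 was at -1.34, Mmp2 at -1.13, Mmp23 at -1.44 and Mmp24 at -1.27.

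Chromatin and cell cycle genes had more raised than lowered promoters. Of 29 genes of chromatin remodelling and histone modification 11 were raised and 4 lowered, with a median of 0.72. Over all 95 regions of that list, 24 were raised and 27 lowered, or 25.3% and 28.4%. Of all qualified regions these shares were 14.3% and 45.8%. Chd4, the helicase of the NuRD complex, had 7 and 52 reads, a log2 of 2.78, and the acetyl-lysine reader Brd2 had 16 and 62, a log2 of 1.90. The methyltransferase Ezh2 had 1.33 and its partner Eed 1.18, whereas the deacetylase Hdac3 was lowered with 53 and 15 reads, a log2 of -1.74. Of 27 cyclins and cell cycle genes 8 were raised and 2 lowered, with a median of 0.57. The 3 D-type cyclins, which start the cycle, were all raised, at 2.48 for Ccnd1 in a region 2481 bp from the TSS, 1.94 for Ccnd2 and 1.78 for Ccnd3. The inhibitors Cdkn1b, at 1.51, and Cdkn2c, at 2.52, were raised as well, and Mcm6, a part of the replicative helicase, was lowered with 21 and 1 reads in a region 2205 bp from the TSS.

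Splicing factors had 12 raised and 1 lowered of 36 promoters, with a median of 0.66. Hnrnpa1 had 39 and 89 reads, a log2 of 1.12 (0.61 to 1.68). Heat shock proteins and chaperones had 13 raised and 5 lowered of 52, among them Dnajc13 with 8 and 65 reads, a log2 of 2.91 (2.02 to 4.10). Of 13 genes of lysosomal nutrient sensing 6 were raised, including Lamtor2 at 1.35 and the transcription factors Tfe3 at 1.16 and Tfeb at 1.04, and 1 was lowered, Rptor, the mTORC1 scaffold, at -2.52. Over all 71 regions of that list, 14.1% were raised and 45.1% lowered, near the 14.3% and 45.8% of all qualified regions. Other housekeeping classes varied. Replication-dependent histones had a promoter median of 0.71 and proteasome subunits one of 0.51. Mitochondrial ribosomal proteins had 11 raised and 3 lowered of 34 promoters, with a median of 0.30. Cytosolic ribosomal proteins had 4 raised and 5 lowered of 28 promoters, respiratory chain genes 11 and 6 of 40, and translation factors with tRNA synthetases 16 and 13 of 69, with medians of 0.26, 0.03 and 0.03.

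**Figure D4:**
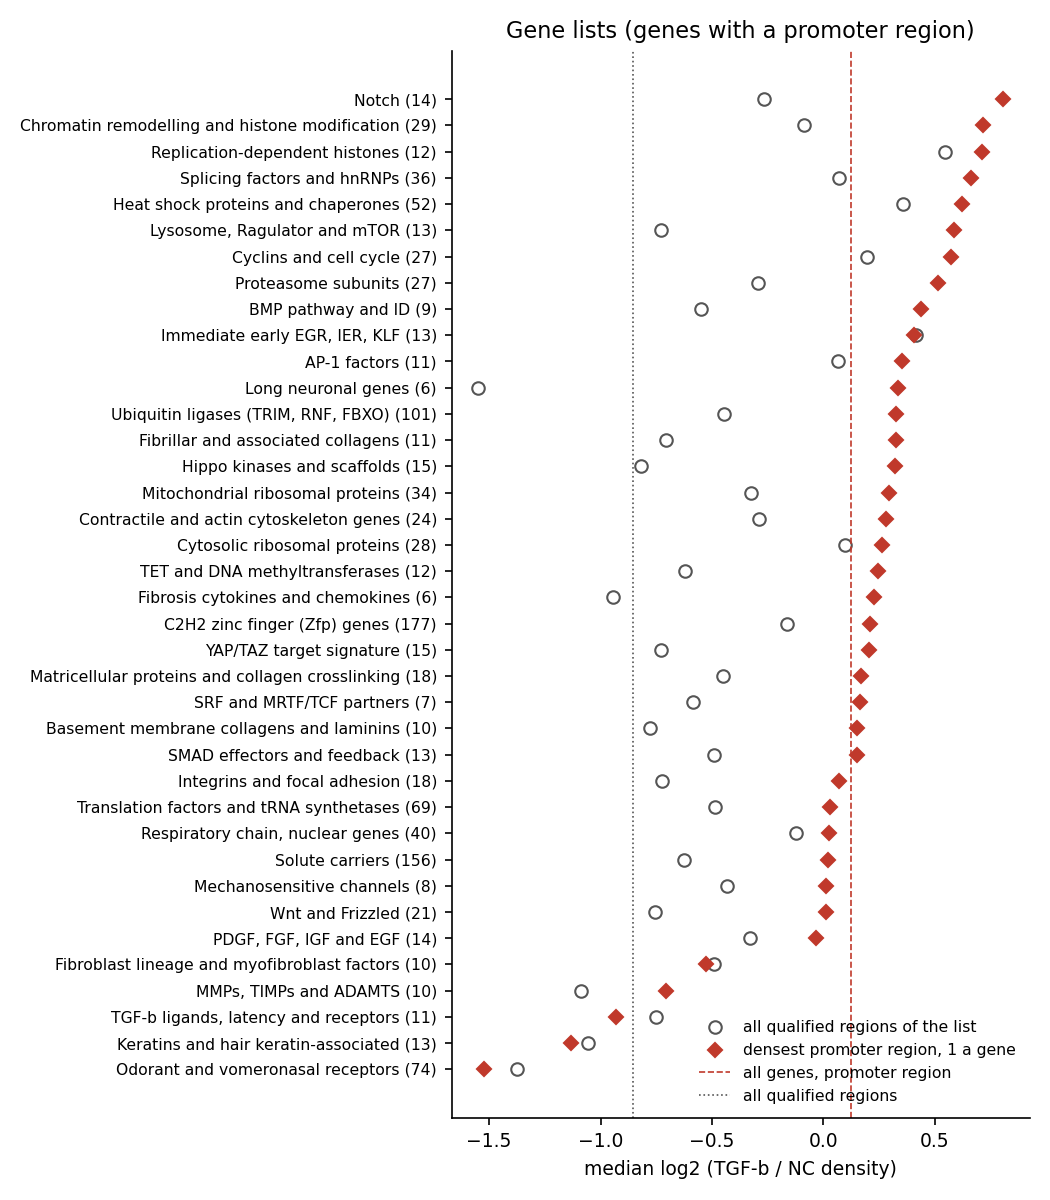
Median log2 of the TGF-b over the NC density (horizontal axis) for gene lists with at least 6 promoter genes (1 such list is left out), over all qualified regions (open circles) and over the densest promoter region of each gene (diamonds), with the number of promoter genes in brackets. The dashed line is the promoter median of all genes, 0.13, and the dotted line the median of all qualified regions, -0.85; odorant receptors and keratins are lowest and the Notch list highest by promoters.

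Transcription factor genes moved in both directions. Of 177 C2H2 zinc finger (Zfp) genes 58 were raised and 20 lowered at the promoter, with a median of 0.21. Of 11 AP-1 genes 3 were raised and 1 lowered, with Jun at 1.20 (0.61 to 1.85), Fosl2 at 1.13 (0.59 to 1.73) and Batf the lowered one, at -1.08 (-2.53 to 0.11). Maff had a lowered region with 35 and 8 reads, while its densest promoter region, with 85 and 60, did not pass 2-fold. Of 14 Notch pathway genes 4 were raised and 1 lowered, with a median of 0.81; Hey1, a target of Notch, had 3 and 31 reads, a log2 of 3.11, and the protease Adam17 had 13 and 46, a log2 of 1.78. Of 10 factors of fibroblast lineage and myofibroblast state 2 were raised and 4 lowered, with a median of -0.53. Gata4 was at -1.66, Meox1 at -1.84, Tbx18 at -1.11 and Foxp1 at -1.70, against Wt1 at 1.42 and Twist1 at 1.35.

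Among lists with at least 6 promoter genes, those of genes used in sensory or epithelial cells had the lowest promoter medians. Of 74 odorant and vomeronasal receptor genes 50 were lowered and 12 raised, with a median of -1.52. Or6b2 had 53 and 10 reads at its promoter, a log2 of -2.26 (-3.33 to -1.41), in a region called in the TGF-b library alone. Keratins and keratin-associated proteins had 7 lowered and 1 raised of 13, with a median of -1.13. Clustered protocadherins, adhesion molecules of neurons with only 3 promoter genes, had a promoter median of -1.47, and 5 of their 6 regions were lowered. The lowest of 255 KEGG pathways with 20 to 500 promoter genes was olfactory transduction, with 50 of 86 lowered and a median of -1.27, followed by complement and coagulation at -0.54 and neuroactive ligand and receptor interaction at -0.46. The highest was vasopressin-regulated water reabsorption, with 13 of 25 raised, 5 lowered and a median of 1.01, followed by a longevity regulating pathway with 14 of 38 raised and 0.78, cocaine addiction with 10 of 22 and 0.74, and p53 signaling with 19 of 50 and 0.73. The spliceosome had 19 of 62 raised and a median of 0.59. ECM-receptor interaction was at -0.08 and TGF-beta signaling at 0.33. Among ontology processes, negative epigenetic regulation of gene expression was highest, with 12 of 20 promoters raised and 2 lowered.

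Marker genes of other heart cells were included among the lists. Summed over qualified regions, the density of cardiac fibroblast markers was 160 in NC and 131 in TGF-b, from 6 of 9 genes. It was 230 and 116 for cardiomyocyte markers, from 5 of 9 genes, 221 and 137 for endothelial, from 6 of 8, and 235 and 139 for pericyte and smooth muscle markers, from 7 of 8. Macrophage markers gave 62.4 and 33.6 from 4 of 8 genes, and neural ones 26.1 and 15.4 from 3 of 5. These sums run over regions called separately in each library and over lists with unlike numbers of promoter regions, so they are not compared between cell types. Association with chromatin at a gene does not show that it is expressed, so these values do not check the cell type; fewer cells of a type and less signal per cell cannot be told apart, and the part of cell composition in the results was not tested.

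The S set, taken to be SRF, was put through the same contrast, again with 1 library a side and in a table scaled separately. Of the qualified T set regions, 4678 overlapped an S set region by at least 1 bp, which is 8.31% of them and involves 8.58% of the S set regions. The median S set log2 was 0.38 at the 898 raised T set regions, 0.25 at the 2818 that were neither and -0.52 at the 962 lowered. With the authors' line of the S set undone these were 0.92, 0.81 and 0.023, so the order stayed while the sign at lowered regions did not. The counts of shared and opposite calls given for the 2 sets use the values as scaled. Part of that order went with position: within 1 kb of a TSS the S set medians were 0.55 at raised, 0.50 at neither and -0.19 at lowered regions, and elsewhere they were -0.12, -0.26 and -0.57. The S set regions as a whole also had a higher median within 1 kb, 0.33, than beyond 10 kb or without a gene, -0.29. Across the joined regions Pearson's r was 0.27 and Spearman's rank coefficient 0.30, as a description of regions that share libraries and of which neighbours share reads. Within 1 kb of a TSS they were 0.14 and 0.13.

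**Figure D5:**
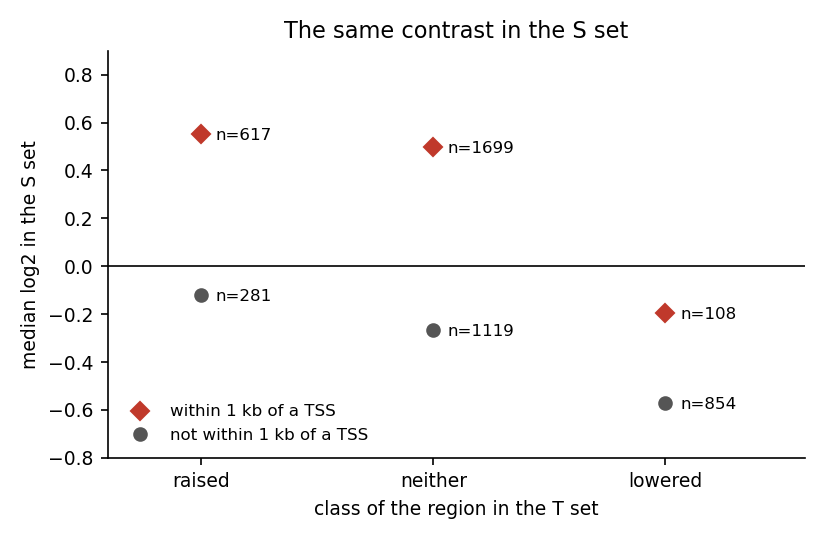
Median log2 of the TGF-b over the NC density in the S set (vertical axis) at regions that were raised, neither or lowered in the T set (horizontal axis), within 1 kb of a TSS (diamonds) and elsewhere (circles), with the number of regions. Medians at promoters are 0.55, 0.50 and -0.19.

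Of all 4678 joined regions, 18.6% were raised and 15.5% lowered in the S set. Raised in both sets were 223 regions, or 24.8% of those raised in the T set, and lowered in both 306, or 31.8% of those lowered. Within 1 kb of a TSS the S set was raised at 30.1% of raised T set regions and at 24.1% of those that were neither. The intervals of both sets lay on the same side of 0 in 190 of the regions raised in both and in 238 of those lowered in both. Among those raised in both, Gls2, a mitochondrial glutaminase, had 4 and 36 reads in the T set and 0 and 21 in the S set. Klf3, a zinc finger repressor, had 27 and 126 reads, then 12 and 70. Kdm2a, a histone demethylase that binds CpG-rich DNA, had 19 and 74, then 5 and 33, and Pbrm1, a subunit of the PBAF remodelling complex, had 14 and 47, then 3 and 31. All 4 regions lay within 250 bp of a TSS. Among those lowered in both, an intronic region of the BMP receptor gene Bmpr1b had 65 and 1 reads in the T set and 11 and 1 in the S set, and one of Map3k4 had 78 and 11, then 22 and 6.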

How the data were processed

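The regions, lists and members were chosen with earlier results of these data known. The methods of the study name GRCm39 and Bowtie2, whereas the submitters' notes name mm10 and BWA 0.7.12; the coordinates in the deposited tables are those of GRCm39. The deposited values are a signal, a normalized read density worth 0.5 per read after adding 1 read, which the authors rescaled along a line so that regions called in both libraries centre on 0. With the line undone, 99.993% of T set and 99.98% of S set regions held whole numbers of reads to within 0.1 in both libraries, and these reads give the depth and the Wilson 95% intervals. The authors' own fold and p-value columns, the tables of the siRNA libraries and library totals were not used. MT regions (13) were left out.

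The log2 ratio was computed in Python 3.11.15 with pandas 2.3.3, and overlaps with bedtools 2.31.1. Named promoters were the 10 highest by lower and the 10 lowest by upper bound within 3 kb of a TSS, 1 a gene. Also named were the 5 genes with the most raised and the 5 with the most lowered regions, ties in order of symbol, and in each list the 2 densest raised and 2 densest lowered regions. Further list members, the printed sequences and the regions raised or lowered in both sets were named after their values were seen. A few items these rules cover are not reported here. Read recovery was tested on simulated data.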

Additional observations from a re-analysis of the deposited data

Results flagged for a closer look

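Regions whose log2 went opposite ways in the T and the S set drew attention, since the contrast is the same. There were 86 regions raised in the T set and lowered in the S set, and 89 lowered in the T set and raised in the S set, out of 4678 joined regions. The first are 9.58% of regions raised in the T set, where 15.5% of all joined regions were lowered in the S set, and the second are 9.25% of those lowered, where 18.6% of all were raised. As each set has 1 library a side, this difference was not tested. The intervals of both sets lay on opposite sides of 0 in 55 and 58 of them. A region 800 bp from the TSS of Gm4128 had 3 and 21 reads in NC and TGF-b of the T set and 15 and 4 in the S set. An intronic region of Wdfy3, an adaptor of selective autophagy, had 5 and 24, then 16 and 6. In the other direction, a region of Plekhh1 had 18 and 1 reads, then 3 and 23.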

How the results depend on the processing

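Counts of raised and lowered regions depended on the scaling and on the density minimum. Centred on the median of all regions, 45674 of them were raised and 46466 lowered with a median of 0, the qualified ones gave 13884 and 16865 with a median of -0.20, and 5117 genes had raised and 3742 lowered regions alone. Without the authors' line the median of all regions was -0.78. At 4-fold, 17666 regions were raised and 36607 lowered. With no density minimum the counts were 29631 and 71977, with a median of -0.65. A minimum of 15 gave 1888 and 5475 regions, a median of -0.52, and 1247 and 2195 genes. A minimum of 7.5 on the mean of both densities gave 3245 and 9716 with a median of -0.41. With promoter regions alone, 2718 genes had lowered regions only. Of the alternatives chosen after seeing the data, 1 region for each run of summits within 2 kb gave a median of -0.89, and regions called in both libraries gave 967 raised and 1075 lowered with a median of -0.015.

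The promoter minus distant difference within genes was 0.66 with regions called in both libraries, 1.46 at a minimum of 15 and 0.77 with none, all chosen after seeing the data. With a minimum of 7.5 also in the S set, its medians were 0.48 at raised, 0.30 at neither and -0.79 at lowered T set regions. Without the authors' line in the S set, chosen after seeing the data, they were 0.92, 0.81 and 0.023, so the direction at lowered regions was not stable while the order was kept. The median of the long neuronal genes turned from -1.55 to 0.15 with promoter regions alone. Of 48 lists, 8 had a median above 0 over all regions and 24 of 47 had one by promoter regions alone, against 15 of 42 at a minimum density of 15 and 29 of 48 when centred on the median, which adds the same amount to each list.

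Setting reads of 3 or fewer to 3 could not change a call, since qualified regions held 13 reads or more in the library with the larger density. Windows of 200 bp around regions were not run, since sequence was read from promoters only; the 200 bases before the start, used after seeing the data, gave 7.72% of raised promoters with the TEAD motif in place of 11.6%. No paired analysis was possible because each group holds 1 library.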

Other observations

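Genes of DNA methylation and demethylation, which the study's work on TET3 concerns, moved in both directions. Of 12 with a region within 3 kb of a TSS, 3 were raised and 4 lowered, against 22.7% and 22.2% of all genes. Dnmt3a, a de novo methyltransferase, had 50 reads in NC against 13 in TGF-b, a log2 of -1.84 (-2.78 to -1.05). Tet1 had 27 and 8, a log2 of -1.56, and Tdg, the glycosylase that removes oxidised methylcytosine, had 23 and 6, a log2 of -1.68. Tet3 had 4 qualified regions, of which 3 were lowered and none raised. Over all qualified regions, 45.8% were lowered and 14.3% raised. Mbd2, a methyl-CpG binding gene, was lowered with 60 and 28 reads, a log2 of -1.09 (-1.75 to -0.47).

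Piezo2, a mechanosensitive channel, had 18 qualified regions, all intronic, with 8 lowered and 0 raised, while 51.2% of all intronic regions were lowered and 12.3% raised. Piezo1 had 24 and 48 reads in a region 2294 bp from the TSS, a log2 of 0.97 (0.30 to 1.70). Of 27 proteasome genes 7 were raised and 2 lowered, of 12 replication-dependent histone genes 5 and 3, and of 101 ubiquitin ligase genes 24 and 14. Solute carriers, with 28 raised and 41 lowered of 156, and PDGF, FGF, IGF and EGF genes, with 1 and 4 of 14, had more lowered than raised promoters.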
